A study of Mus musculus with 96 samples.

Results

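The striatum of mice carrying 1 Q140 allele of Htt, the Huntington's disease gene, was compared with the striatum of wild-type mice. Membership was set by title alone, which gave 8 libraries of heterozygous Q140 knock-in mice and 8 of wild-type mice, 16 of the 96 libraries in the series. Neither group carries a change of Msh6, a mismatch repair gene of which the remaining genotypes lack 1 or both copies. Both groups have 4 males and 4 females on a C57BL/6 background, dissected at 6 months of age, with 1 library per animal. The knock-in allele lies in Htt itself and is not restricted to a cell type, and each library holds the RNA of the whole dissected striatum. The full series has 6 genotypes of 8 mice each (Q140, Msh6+/-, Msh6-/-, both Q140 crosses, and wild type), each with striatum and cerebral cortex.

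In Huntington's disease an expanded CAG repeat in HTT lengthens a glutamine stretch in huntingtin, and the GABAergic projection neurons of the striatum are the cells most affected. These neurons integrate cortical glutamate and midbrain dopamine through G protein, phosphatase and MAP kinase signalling in their spines. The falls of their identity genes, such as dopamine receptors, peptides and phosphodiesterases, are well known from such mice, so the account below turns to the genes and pathways around them.

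Total counts per library ran from 15.8 to 20.6 M in Q140 striatum and from 15.9 to 19.9 M in wild-type striatum. Levels are given as CPM, a gene's counts divided by the library's TMM-scaled total in M, where TMM sets each library's effective depth so that most genes show no shift. The TMM factors themselves did not overlap, at 1.01 to 1.03 in Q140 and 0.961 to 0.995 in wild-type libraries. Without them, on library totals alone, the median log2 fold change of all genes tested was 0.086, against 0.014 with them. The labelled tissue was checked by 10 projection neuron markers, which summed to 7587 to 8020.3 CPM in Q140 and 12159.7 to 13885 CPM in wild-type striatum, with 9 of the 10 lower in Q140, 1 higher and none at 0. The same markers had a median sum of 369.9 CPM in Q140 cortex and 394 CPM in wild-type cortex. In whole tissue, fewer cells of a type and less RNA per cell cannot be told apart. Htt transcript was 206 to 229 CPM (median 221) in Q140 and 225 to 247 CPM (median 240.2) in wild-type striatum, with overlapping groups and -0.12 ± 0.04 as a log2 fold change with its SE (adjusted p = 0.00546), a fall that did not pass with library totals alone (-0.05, adjusted p = 0.227). Msh6, at 18.1 to 20.1 CPM (median 18.8) in Q140 and 14.6 to 18.4 CPM (median 17.6) in wild-type mice, did not pass the test (log2 fold change 0.13 ± 0.06, adjusted p = 0.106) but passed with library totals alone (adjusted p = 0.00894), and its exons overlap Fbxo11.

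Q140 striatum differed from wild type in a large share of its transcripts, mostly by small amounts. Of 17503 genes tested by edgeR's quasi-likelihood test at an adjusted p below 0.05, 2719 were higher in Q140 (15.5%) and 2482 were lower (14.2%). With library totals alone the split was 5480 higher (31.3%) and 1557 lower (8.9%), 40.2% in all, and with RLE scaling 13.9% were higher and 15.1% lower, 29.1% in all. A log2 change of at least 0.5 was reached by 379 of the higher genes (2.17% of those tested) and 474 of the lower genes (2.71%), and a change of at least 1 by 60 (0.343%) and 101 (0.577%). For 507 genes (2.9%) every Q140 library lay above every wild-type library, and for 737 genes (4.21%) every Q140 library lay below.

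Among called changes of at least 0.5 on the log2 scale outside 65 projection neuron identity genes, the 12 falls with the smallest p included regulators of protein phosphorylation and proteins of dendrites and synapses. Ddit4l (ENSMUSG00000046818, chromosome 3, 137621612 to 137628333, GRCm38), an inhibitor of mTORC1 signalling, was at 7.91 to 10.8 CPM (median 9.37) in Q140 mice and 32.4 to 48.4 CPM (median 40.7) in wild-type mice, or -2.15 ± 0.08 as a log2 fold change with its SE (adjusted p = 7.62e-27). Arpp19, a cAMP-regulated phosphoprotein that inhibits protein phosphatase 2A once phosphorylated, was at 401 to 479.5 CPM (median 410.0) in Q140 and 651 to 796 CPM (median 715) in wild-type mice (-0.78 ± 0.04, adjusted p = 5.97e-21). Ppp4r4, a regulatory subunit of protein phosphatase 4, was at 63.1 to 70.1 CPM (median 65.6) in Q140 and 104 to 116 CPM (median 108) in wild-type mice (-0.72 ± 0.03, adjusted p = 1.39e-22). For each of these genes the highest Q140 mouse was below the lowest wild-type mouse. Plk5, a brain-expressed member of the polo-like kinase family that is annotated as inactive, reached 11.3 to 15.6 CPM (median 13.7) in Q140 and 32.1 to 41.3 CPM (median 36.1) in wild-type mice (-1.44 ± 0.07, adjusted p = 7.02e-23). Rps6ka4, the kinase MSK2 that MAP kinases activate and that phosphorylates CREB and histone H3, had 39.0 to 45.9 CPM (median 41.1) in Q140 and 62.6 to 75.9 CPM (median 67.8) in wild-type mice (-0.72 ± 0.04, adjusted p = 1.09e-21). Ptprv, a receptor-type tyrosine phosphatase, had 29.7 to 39.6 CPM (median 37.3) in Q140 and 79.5 to 99.98 CPM (median 84.5) in wild-type mice (-1.25 ± 0.06, adjusted p = 5.14e-22). Here too the groups stayed apart in all 3 genes.

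Among synaptic and dendritic genes, Ddn, which encodes the postsynaptic protein dendrin, stood at 809.5 to 1004 CPM (median 897) in Q140 striatum and 1305 to 1468 CPM (median 1396) in wild-type striatum (-0.64 ± 0.04, SE, adjusted p = 3.10e-19). Gsg1l, an auxiliary subunit of AMPA receptors, was at 109 to 123 CPM (median 119) in Q140 and 173 to 201 CPM (median 188) in wild-type mice (-0.67 ± 0.03, adjusted p = 5.14e-22). Bcr, a regulator of small GTPases, was at 436 to 493 CPM (median 480.2) in Q140 and 647 to 705 CPM (median 677) in wild-type mice (-0.51 ± 0.03, adjusted p = 9.54e-20). No Q140 mouse reached the wild-type range in these 3 genes. Zbtb18, a transcriptional repressor of neuronal development, was at 84.3 to 96.8 CPM (median 90.5) in Q140 and 138 to 170.2 CPM (median 151) in wild-type mice (-0.74 ± 0.04, adjusted p = 2.15e-19). Slc4a11, a membrane transporter related to bicarbonate transporters, was at 3.34 to 5.13 CPM (median 4.51) in Q140 and 11.8 to 17.5 CPM (median 16.7) in wild-type mice (-1.85 ± 0.10, adjusted p = 5.84e-21). Sec14l1, of the Sec14-like lipid-binding family, was at 304 to 344 CPM (median 319) in Q140 and 423 to 501 CPM (median 460.2) in wild-type mice (-0.51 ± 0.03, adjusted p = 8.36e-20). Again the Q140 mice lay below all wild-type mice. Exons of Ptprv, Rps6ka4, Zbtb18 and Ddn overlap those of another annotated gene, so their counts could include reads of that gene. Beside these falls 9 of the 10 projection neuron markers were lower and 1 higher, with the sums given above, and their part was not tested.

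The 12 rises with the smallest p included surface and adhesion molecules, G protein signalling and the transcription machinery. Stmn2 (ENSMUSG00000027500, chromosome 3, 8509360 to 8561606), a microtubule-destabilising protein of growing axons, was at 101 to 114 CPM (median 109) in Q140 and 57.2 to 67.3 CPM (median 62.4) in wild-type striatum, or 0.80 ± 0.04 as a log2 fold change with its SE (adjusted p = 5.14e-22). Cd200, a neuronal surface ligand for a receptor on myeloid cells, was at 65.9 to 72.0 CPM (median 67.5) in Q140 and 42.9 to 49.4 CPM (median 46.5) in wild-type mice (0.55 ± 0.03, adjusted p = 3.84e-20). Olfm3, a secreted olfactomedin, was at 32.4 to 37.8 CPM (median 35.0) in Q140 and 18.0 to 23.7 CPM (median 21.3) in wild-type mice (0.73 ± 0.05, adjusted p = 8.17e-16). The lowest Q140 mouse exceeded the highest wild-type mouse in each case. Lrrn3, a leucine-rich repeat membrane protein of neurons, had 56.7 to 75.7 CPM (median 72.9) in Q140 and 36.4 to 47.3 CPM (median 42.7) in wild-type mice (0.73 ± 0.06, adjusted p = 2.59e-14). Pcdh20, a protocadherin outside the clustered families, had 15.2 to 21.7 CPM (median 16.6) in Q140 and 5.97 to 9.33 CPM (median 6.79) in wild-type mice (1.27 ± 0.10, adjusted p = 1.51e-14). Both remained clear of the wild-type range, and mouse 24-1 was the highest Q140 mouse for Pcdh20 and the lowest for Lrrn3. Beside the rises, 3 of 6 tested cortical glutamatergic neuron markers were higher and none lower, none was at 0, and the sum over 10 markers was 116 to 148 CPM in Q140 and 94.8 to 126 CPM in wild-type striatum, with overlap. The part of such RNA in the rises was not tested.

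Polr2a, the largest subunit of RNA polymerase II, was at 141 to 168 CPM (median 152) in Q140 and 86.4 to 103 CPM (median 98.3) in wild-type mice (0.64 ± 0.04, SE, adjusted p = 3.33e-20). Sfmbt2, a Polycomb group protein, had the largest fold change of the 12 rises, with 7.51 to 12.9 CPM (median 9.56) in Q140 and 1.28 to 3.43 CPM (median 2.49) in wild-type mice (1.98 ± 0.12, adjusted p = 1.46e-18). All Q140 mice were above all wild-type mice for both genes. Gprasp2, which sorts G protein-coupled receptors after endocytosis, was at 133 to 156 CPM (median 147) in Q140 and 82.8 to 101 CPM (median 98.0) in wild-type mice (0.60 ± 0.04, adjusted p = 3.82e-17). Ipcef1, a partner of cytohesin exchange factors, was at 10.1 to 12.6 CPM (median 11.2) in Q140 and 3.91 to 6.96 CPM (median 4.56) in wild-type mice (1.25 ± 0.09, adjusted p = 3.08e-16). Nagk, the kinase that salvages N-acetylglucosamine, was at 30.2 to 34.2 CPM (median 32.2) in Q140 and 15.6 to 23.0 CPM (median 21.6) in wild-type mice (0.67 ± 0.05, adjusted p = 7.90e-16). The ranges of the groups were again separate. Gprasp2 shares exonic sequence with Bhlhb9, Ipcef1 with Oprm1, and Gng3, a rise described with the G proteins, with Bscl2.

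**Figure D1:**
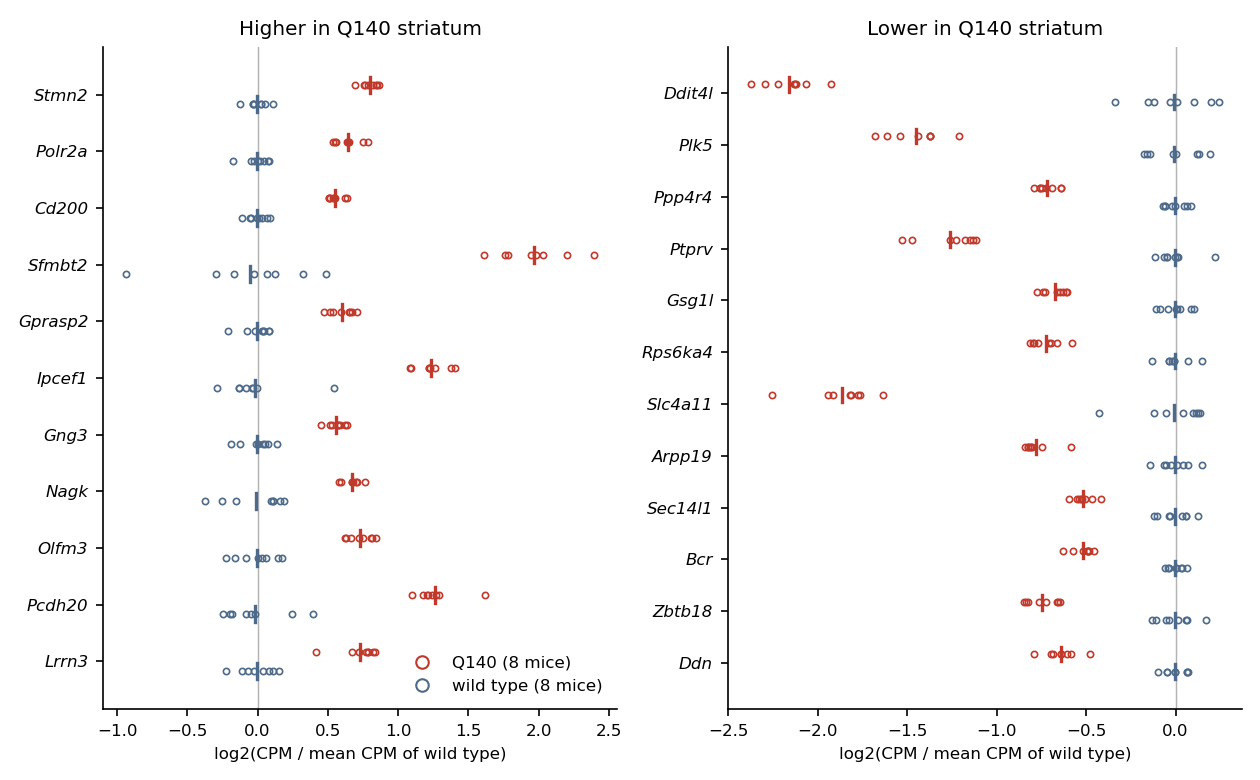
Level of 23 of the 24 genes with the smallest p among called changes of at least 0.5 on the log2 scale outside the identity genes, 11 higher (left) and 12 lower (right) in Q140, as log2 of CPM over the wild-type mean CPM. Circles are mice (8 Q140 above 8 wild type in each row), bars are means of the plotted log2 values, and for every gene shown the Q140 and wild-type circles do not overlap.

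All 24 genes were called in males and in females taken apart, which is no separate check because the ranking used the same mice. Their log2 fold changes were 0.53 to 1.83 in males and 0.55 to 2.15 in females for the 12 rises, and -2.12 to -0.50 in males and -2.18 to -0.51 in females for the 12 falls. In mice that also carried Msh6+/-, which share no animal with this comparison, Q140 against Msh6+/- gave 0.56 to 1.82 for the rises and -2.09 to -0.51 for the falls. In Msh6-/- mice the ranges were 0.52 to 2.03 and -2.23 to -0.55, and all 24 genes were called in both pairs, where 31.2% and 33% of genes tested were called in either direction. The Q140 effect differed between males and females for 0 genes by edgeR (851 at an unadjusted p below 0.05) and for 0 by limma-voom (858).

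In cortex of the same 16 mice none of the 24 genes was called, and 3 of 17622 genes were higher in Q140 (0.017%) and 0 lower. The cortical log2 fold changes ran from -0.14 to 0.11 for the 12 rises and from -0.53 to 0.02 for the 12 falls. The difference between tissues passed its test for all 24. Over 18440 genes tested, the effect was higher in striatum than in cortex for 1370 (7.43%) and lower for 1288 (6.98%). That test reuses the striatum libraries by which the 24 were ranked, so it is no separate check of them. Stmn2 differed between tissues by 0.79 ± 0.06 (adjusted p = 1.57e-20) and Ddit4l by -1.89 ± 0.13 (adjusted p = 2.82e-21). Slc4a11 had the cortical value farthest from 0 of the 24, -0.53 ± 0.16, and a tissue difference of -1.31 ± 0.19 (adjusted p = 4.56e-08).

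**Figure D2:**
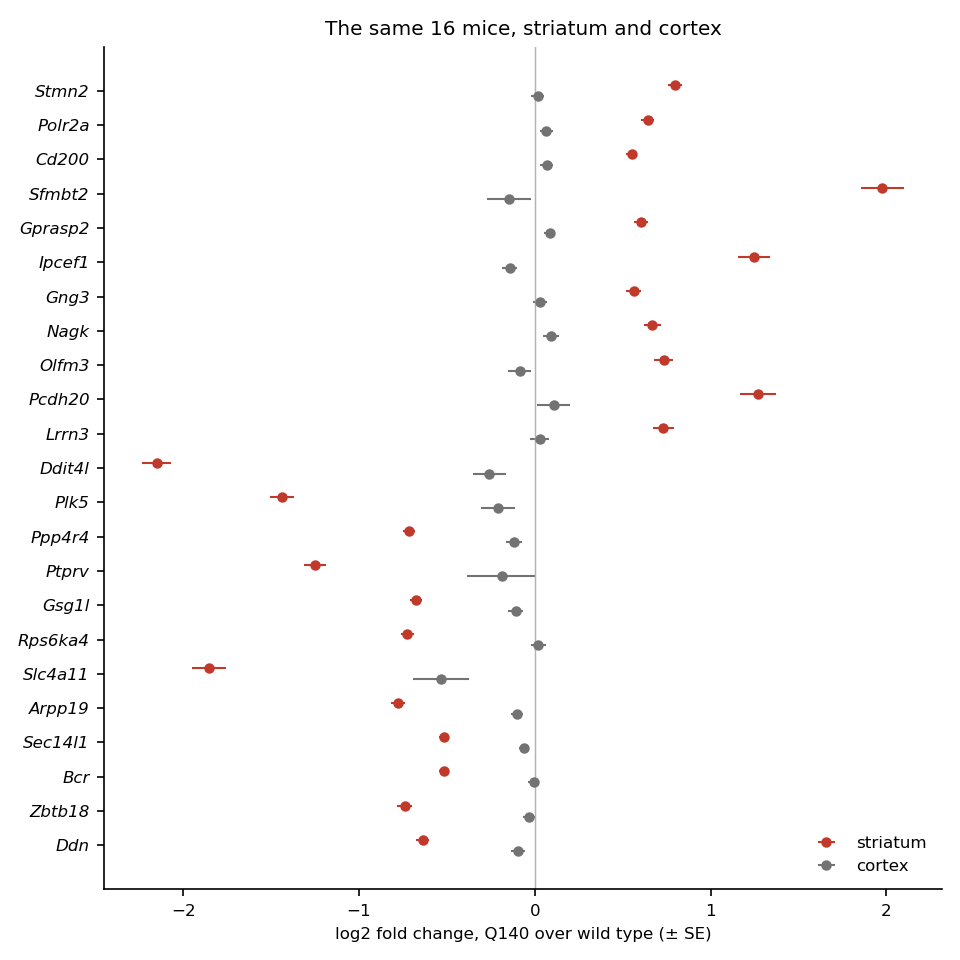
Log2 fold change of Q140 over wild type with its SE for the same 23 genes, in striatum (red, upper point of each row) and cortex (grey, lower point) of the same 8 Q140 and 8 wild-type mice. Striatal values lie at or beyond 0.51 in either direction, while cortical values lie between -0.53 and 0.11.

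Beyond single genes, 27 lists of 1025 genes by role were followed through the same test. Lists that held more falls than the 14.2% of all genes tested included the circadian clock (11 of 20), actin and small GTPase regulators (24 of 56), TGF-beta and BMP signalling (15 of 41), extracellular matrix (15 of 43) and G protein signalling (14 of 38). Autophagy and lysosome genes, at 13 of 45, and cytosolic tRNA synthetases, at 6 of 20, held more rises than the 15.5% of all genes. Cytosolic ribosomal proteins held fewer of both, with 2 of 77 higher and 2 lower. On library totals alone 31.3% of all genes tested were higher and 8.9% lower, with a median log2 fold change of 0.086. Under that setting the falls and rises were 20 and 18 for actin and small GTPase regulators. They were 6 and 6 for extracellular matrix and 11 and 12 for G protein signalling. The counts and medians with library totals alone that are given with each list below are to be read against those values. Genes called lower had a median level of 5.69 log2 CPM and those called higher 4.64, against 3.98 for all genes tested. The lists were set against all genes without matching for level, so level could have a part in these shares, which was not tested. The counts describe the lists and were given no test.

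**Figure D3:**
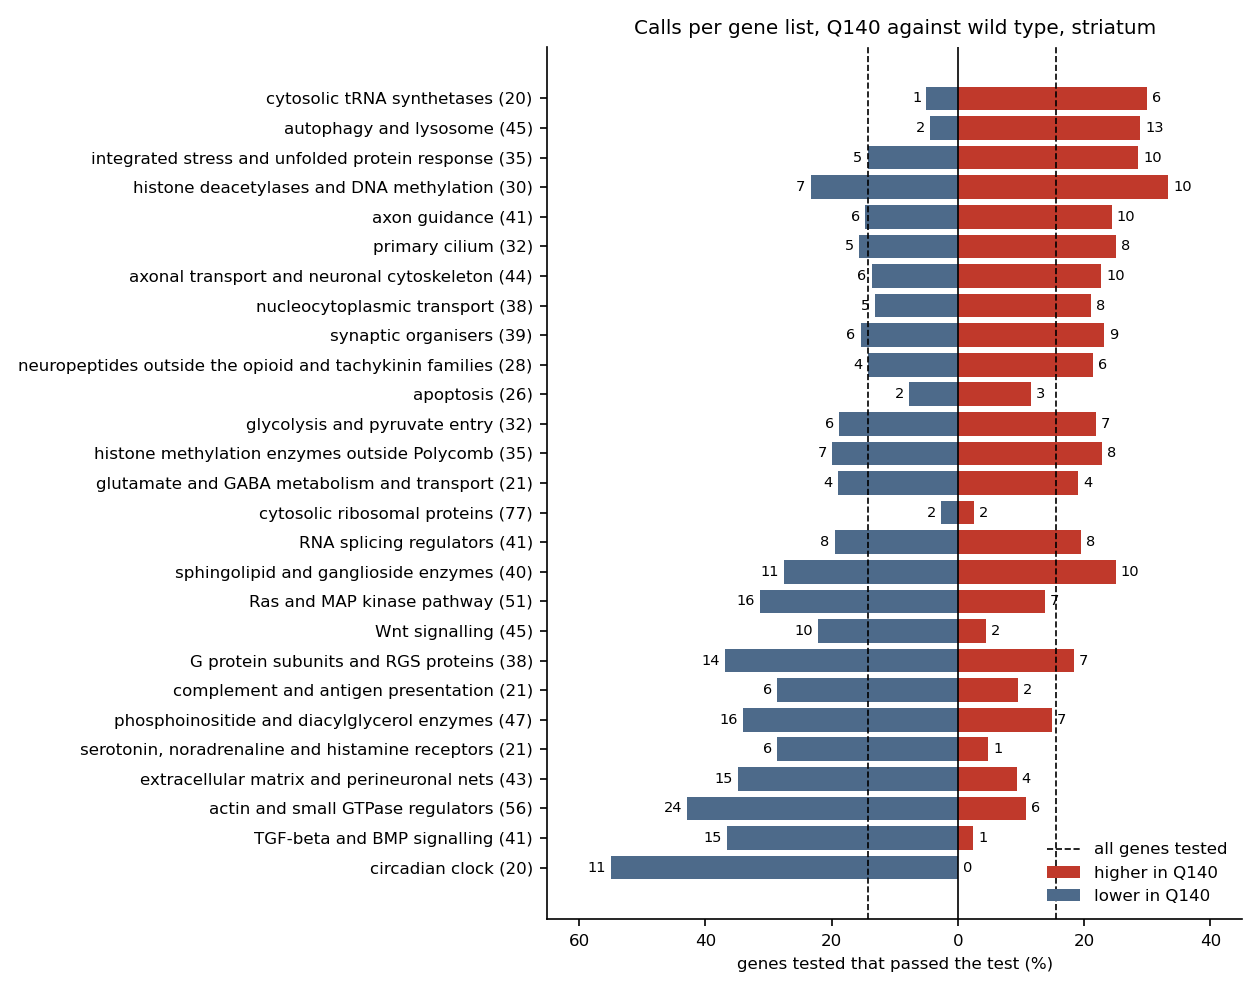
Share of each gene list's tested members (number in brackets) that passed the test at an adjusted p below 0.05, with higher in Q140 to the right (red) and lower in Q140 to the left (blue). Numbers beside the bars are genes, and dashed lines mark 15.5% higher and 14.2% lower among all 17503 genes tested.

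Genes of G protein signalling changed among both the subunits and their regulators. RGS proteins speed up GTP hydrolysis by G protein alpha subunits and so end receptor signalling. Of 16 RGS proteins and partners, 10 fell and 1 rose. Rgs14 (ENSMUSG00000052087, chromosome 13, 55369732 to 55384687) was at 38.7 to 49.7 CPM (median 43.1) in Q140 and 71.9 to 102 CPM (median 84.1) in wild-type mice (-0.97 ± 0.06, SE, adjusted p = 2.20e-18), and Rgs4 was at 405 to 521 CPM (median 469) in Q140 and 689 to 897 CPM (median 791) in wild-type mice (-0.75 ± 0.06, adjusted p = 2.66e-15). Both were lower in every Q140 mouse than in any wild-type mouse, as were Rgs11 (-0.61 ± 0.07), Rgs20 (-0.49 ± 0.08), Rgs10 (-0.37 ± 0.05), Rgs5 (-0.27 ± 0.04) and Rgs7bp, the membrane anchor of R7 family RGS proteins (-0.52 ± 0.05). Gnb5, the beta subunit that pairs with that family, fell as well (-0.37 ± 0.05), and the regulator that rose was Rgs19 (0.68 ± 0.08, adjusted p = 4.08e-09). Among 22 alpha, beta and gamma subunits 6 rose and 4 fell, led by the gamma subunits Gng4, at 17.2 to 21.9 CPM (median 19.9) in Q140 and 10.1 to 12.9 CPM (median 11.5) in wild-type mice (0.80 ± 0.07, adjusted p = 3.72e-13), and Gng3, at 109 to 123 CPM (median 118) in Q140 and 69.5 to 87.2 CPM (median 80.4) in wild-type mice (0.56 ± 0.04, adjusted p = 5.28e-16). Neither gamma subunit's groups overlapped. Gnao1, the alpha subunit of Go, was lower (-0.18 ± 0.02), and Gnas, Gnaq and Gnai2 did not pass the test. The list's median log2 fold change was -0.02, against 0.01 for all genes tested, and 0.05 with library totals alone, where 12 members were called higher and 11 lower. Rgs5 is also 1 of 10 pericyte and fibroblast markers, of which 2 were lower and none higher, none was at 0, and the sum was 194 to 213 CPM in Q140 and 215 to 247 CPM in wild-type mice. The part of those cells in the fall of Rgs5 was not tested.

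**Figure D4:**
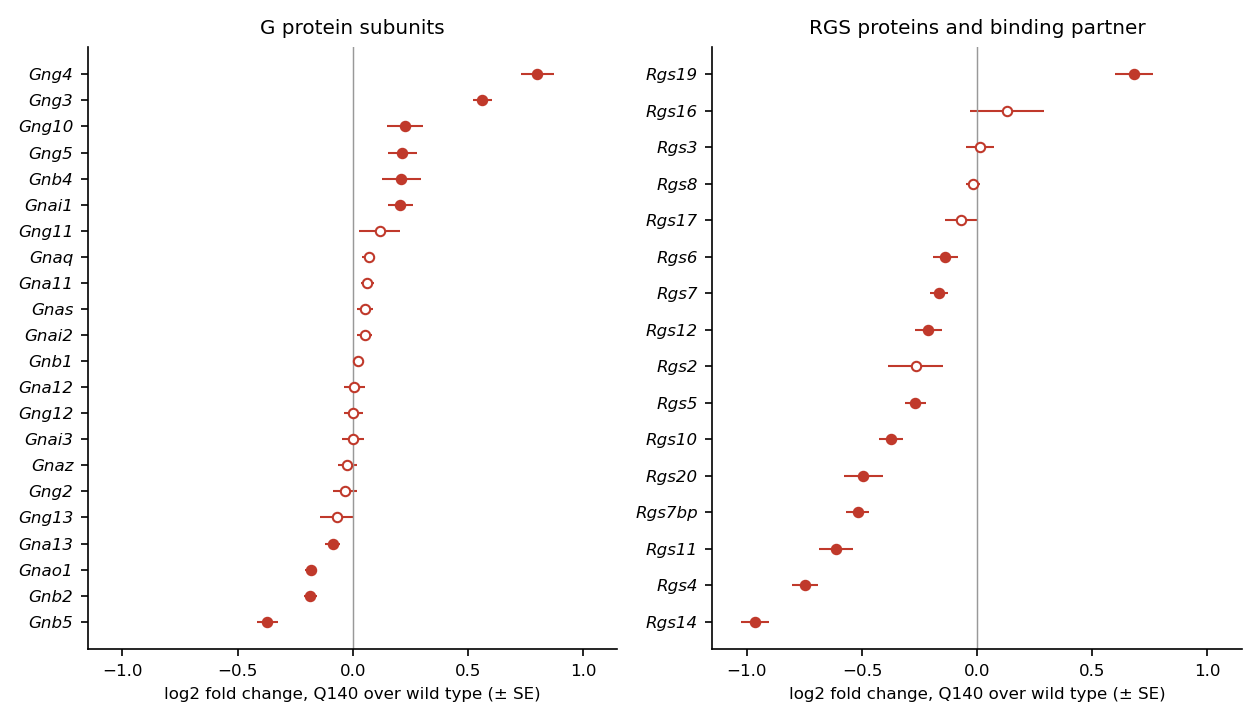
Log2 fold change of Q140 over wild type with its SE for 22 G protein subunits (left) and 16 RGS proteins and partners (right) in striatum. Filled circles passed the test at an adjusted p below 0.05, with 6 subunits higher and 4 lower, and 1 regulator higher and 10 lower.

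Among the receptors that couple to these proteins, those for serotonin, noradrenaline and histamine fell more often than they rose. Htr2c, a Gq-coupled serotonin receptor, was at 94.5 to 117 CPM (median 107) in Q140 and 42.4 to 71.4 CPM (median 57.4) in wild-type mice (0.90 ± 0.09, SE, adjusted p = 2.01e-11). Htr1b, a Gi-coupled serotonin receptor of axon terminals, was at 65.1 to 105 CPM (median 81.4) in Q140 and 102 to 195 CPM (median 133) in wild-type mice (-0.78 ± 0.10, adjusted p = 6.03e-09). The groups were separate for Htr2c and overlapped slightly for Htr1b. Of 21 serotonin, noradrenaline and histamine receptors tested, Htr2c alone rose and 6 fell (2 higher and 6 lower with library totals alone), with a median of -0.12 on the log2 scale. The falls included the histamine receptor Hrh3 (-0.58 ± 0.07, adjusted p = 9.14e-09), the serotonin receptor Htr4 (-0.77 ± 0.17, adjusted p = 0.000284) and the noradrenaline receptor Adra2c (-0.52 ± 0.07, adjusted p = 8.93e-09), which lies 0.44 Mb from Htt on chromosome 5. Neuropeptides outside the opioid and tachykinin families had 6 of 28 members higher and 4 lower (6 and 3 with library totals alone, where the median turned to 0.005 against -0.07). Nts, the neurotensin precursor, was at 2.96 to 5.43 CPM (median 3.90) in Q140 and 1.09 to 4.23 CPM (median 1.42) in wild-type mice (0.95 ± 0.19, adjusted p = 0.000107). The neuropeptide Y receptors Npy1r and Npy2r moved in opposite directions, at 0.51 ± 0.10 (adjusted p = 3.11e-05) and -0.67 ± 0.11 (adjusted p = 7.05e-06). The groups overlapped for all 3 peptide genes.

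Second messenger enzymes that act on membrane lipids fell more often than they rose. Phospholipase C enzymes cut phosphatidylinositol bisphosphate into a calcium-releasing inositol phosphate and diacylglycerol, and diacylglycerol kinases and inositol phosphatases remove those products. Inpp5j, an inositol 5-phosphatase, was at 59.9 to 78.1 CPM (median 67.1) in Q140 and 95.9 to 142 CPM (median 115) in wild-type mice (-0.79 ± 0.07, SE, adjusted p = 9.24e-14). Plcb1, the phospholipase C activated by Gq, was at 396 to 438 CPM (median 409.9) in Q140 and 513 to 625 CPM (median 548) in wild-type mice (-0.41 ± 0.04, adjusted p = 2.53e-13). Dgkb, a diacylglycerol kinase abundant in striatum, was at 482 to 539.8 CPM (median 524) in Q140 and 587 to 776 CPM (median 652) in wild-type mice (-0.36 ± 0.04, adjusted p = 4.24e-10). No Q140 mouse reached the wild-type range in any of them, although the exons of Inpp5j and Plcb1 overlap genes on the opposite strand. Among 47 such enzymes 16 fell and 7 rose, with a median of -0.06, which library totals alone turned to 0.01 with 10 falls and 15 rises. None of 11 phospholipases rose and 4 fell. The diacylglycerol kinases did not move together: Dgkg (0.38 ± 0.07), Dgka (0.33 ± 0.07) and Dgkq (0.19 ± 0.04) rose, while Dgkz (-0.20 ± 0.04) fell with Dgkb.

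In the Ras and MAP kinase pathway, which carries growth factor and synaptic signals to the nucleus, 16 of 51 genes fell and 7 rose (10 and 14 with library totals alone, where the median turned to 0.03 against -0.04). Rps6ka5, the kinase MSK1, was at 54.6 to 67.1 CPM (median 61.3) in Q140 and 79.9 to 89.9 CPM (median 86.9) in wild-type mice (-0.50 ± 0.05, SE, adjusted p = 1.76e-12), so that it fell along with its relative Rps6ka4. Mapk4, an atypical MAP kinase, was at 109 to 123 CPM (median 116) in Q140 and 140.4 to 166 CPM (median 159.7) in wild-type mice (-0.42 ± 0.03, adjusted p = 8.40e-15). Both had separate groups. Of 16 inhibitors of the pathway 7 fell and 1 rose. Spry2, an inhibitor of receptor tyrosine kinase signalling, was at 50.3 to 65.8 CPM (median 58.9) in Q140 and 65.6 to 102 CPM (median 86.4) in wild-type mice (-0.52 ± 0.07, adjusted p = 3.01e-08), with a small overlap. The MAP kinase phosphatases Dusp14 (-0.82 ± 0.19), Dusp6 (-0.46 ± 0.16) and Dusp1 (-0.42 ± 0.17) were lower with overlapping groups, and Dusp6 and Dusp1 did not pass with library totals alone (adjusted p = 0.053 and 0.0953). The Ras activators Sos1 (0.20 ± 0.04) and Sos2 (0.12 ± 0.03) rose, while the activator Rasgrp1 (-0.15 ± 0.03) fell.

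Among regulators of the actin cytoskeleton, which shapes spines, 24 of 56 genes fell. Small GTPases switch actin assembly on and off, exchange factors activate them and GTPase-activating proteins stop them. Chn1, a Rac-inactivating protein, was at 637 to 670.3 CPM (median 653) in Q140 and 854 to 963 CPM (median 885) in wild-type mice (-0.47 ± 0.03, SE, adjusted p = 3.10e-19). Rhobtb2, an atypical small GTPase, was at 150.3 to 191 CPM (median 157) in Q140 and 220.3 to 284 CPM (median 252) in wild-type mice (-0.63 ± 0.05, adjusted p = 8.53e-14). Ppp1r9b, the spine scaffold spinophilin that binds actin and protein phosphatase 1, was at 892 to 1067 CPM (median 939.8) in Q140 and 1297 to 1501 CPM (median 1345) in wild-type mice (-0.52 ± 0.05, adjusted p = 3.27e-12). The Q140 mice were below the wild-type mice without exception in all of them. Of 25 exchange factors and GTPase-activating proteins 12 fell, among them Dock4 (-0.58 ± 0.07), Arhgap33 (-0.42 ± 0.04), Tiam2 (-0.36 ± 0.06) and Kalrn (-0.30 ± 0.05), and Vav3 rose (0.49 ± 0.07, adjusted p = 7.66e-08). Of 21 effectors 9 fell and 5 rose. The falls included Ppp1r9a (-0.28 ± 0.03), Baiap2 (-0.41 ± 0.05) and Actn2 (-0.37 ± 0.05), and the rises the kinases Pak1 (0.23 ± 0.03), Pak3 (0.16 ± 0.04), Limk2 (0.21 ± 0.03) and Rock1 (0.13 ± 0.05) and the actin-binding protein Cttn (0.16 ± 0.03). Over the whole list 6 rose and the median was -0.06, and library totals alone gave 20 falls, 18 rises and a median of 0.01. Of all genes tested that setting called 8.9% lower and 31.3% higher.

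In the TGF-beta and BMP pathways, whose ligands signal through paired receptor kinases to Smad proteins, 15 of 41 genes fell and 1 rose, with a median of -0.11 (11 and 4 with library totals alone, median -0.04). Acvr1c, the activin receptor ALK7, was at 82.9 to 96.6 CPM (median 87.9) in Q140 and 118 to 147 CPM (median 135) in wild-type mice (-0.60 ± 0.05, SE, adjusted p = 3.02e-13). Fst, the secreted activin inhibitor follistatin, was at 1.33 to 3.01 CPM (median 2.59) in Q140 and 5.07 to 8.20 CPM (median 5.51) in wild-type mice (-1.37 ± 0.14, adjusted p = 8.87e-11). Acvr1, a BMP and activin receptor, was at 30.4 to 34.7 CPM (median 31.9) in Q140 and 38.0 to 42.7 CPM (median 39.2) in wild-type mice (-0.31 ± 0.03, adjusted p = 4.49e-10). Each had separate groups. Ligands that fell were Bmp2 (-0.73 ± 0.08), Inhba (-0.69 ± 0.09), Bmp6 (-0.36 ± 0.10) and Bmp1, a protease grouped with them (-0.34 ± 0.05). The pathway's targets Id4 (-0.55 ± 0.06), Id3 (-0.36 ± 0.09) and Id2 (-0.20 ± 0.06, not with library totals alone, adjusted p = 0.0762) fell, as did Smad3 (-0.14 ± 0.03), whereas the receptor Acvr2a rose (0.17 ± 0.04, adjusted p = 0.00204). In cortex none of the 41 was called, where only 3 of all 17622 genes were. The tissue difference passed its test for 11, all with the lower effect in striatum, against 6.98% of all genes tested. Beside these falls 3 of 10 endothelial markers fell and none rose, none was at 0, and their sum was 337 to 390.3 CPM in Q140 and 369 to 466 CPM in wild-type mice, with overlap. The summed astrocyte markers, given beside Slc1a3, were lower without overlap, and the part of either in the falls was not tested.

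Wnt signalling had 10 of 45 genes lower and 2 higher, with 6 and 4 on library totals alone, where the median turned to 0.03 against -0.04. Gsk3b, the kinase that marks beta-catenin for destruction, was at 304 to 325 CPM (median 315) in Q140 and 399 to 442 CPM (median 417) in wild-type mice (-0.41 ± 0.03, SE, adjusted p = 1.88e-18), and Ctnnb1, which encodes beta-catenin, rose by 0.09 ± 0.02 (adjusted p = 0.00195). Tcf7, a transcription factor that beta-catenin binds, was at 11.0 to 14.9 CPM (median 12.5) in Q140 and 17.9 to 24.5 CPM (median 21.0) in wild-type mice (-0.70 ± 0.07, adjusted p = 1.76e-12). Wnt4, a ligand near the lower end of detection, was at 0.469 to 1.63 CPM (median 0.939) in Q140 and 1.74 to 5.08 CPM (median 2.57) in wild-type mice (-1.36 ± 0.23, adjusted p = 5.03e-06). Gsk3b, Tcf7 and Wnt4 had no overlap between groups. None of 13 secreted or membrane inhibitors of the pathway passed the test.

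Circadian clock genes fell in more than a single arm of the loop. The clock is a transcriptional loop in which Clock or Npas2 pairs with Arntl on E-box sequences to switch on period and cryptochrome repressors, nuclear receptors and output factors. No clock gene of 20 rose and 11 fell, with a median of -0.24, against 0.01 over all genes tested. Library totals alone gave the same counts, 0 and 11, with a median of -0.17. Among activators, Npas2 (ENSMUSG00000026077, chromosome 1, 39193731 to 39363236) was at 48.2 to 69.9 CPM (median 59.6) in Q140 and 79.3 to 96.2 CPM (median 92.6) in wild-type mice (-0.59 ± 0.07, SE, adjusted p = 6.22e-10). Arntl fell (-0.29 ± 0.09, adjusted p = 0.0146) with overlapping groups, and Clock did not pass the test (-0.04 ± 0.03, adjusted p = 0.368). The output factors Dbp, at 144 to 179.7 CPM (median 164) in Q140 and 198 to 268 CPM (median 229) in wild-type mice (-0.47 ± 0.06, adjusted p = 1.97e-09), and Hlf, at 238 to 271 CPM (median 252) in Q140 and 291 to 373 CPM (median 318) in wild-type mice (-0.37 ± 0.04, adjusted p = 1.38e-09), had separate groups. So did Tef, the related factor, at -0.26 ± 0.04 (adjusted p = 3.76e-07). Dbp shares exonic sequence with Sphk2 on the opposite strand.

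Among the loop's repressors, Ciart was at 13.6 to 24.5 CPM (median 19.8) in Q140 and 22.3 to 40.1 CPM (median 34.6) in wild-type mice (-0.76 ± 0.10, SE, adjusted p = 2.27e-08). Per1 was at 139 to 201 CPM (median 175) in Q140 and 146 to 301 CPM (median 219) in wild-type mice (-0.41 ± 0.11, adjusted p = 0.00365). The ranges overlapped for both, more widely for Per1. Bhlhe40 (-0.36 ± 0.09), Nr1d1 (-0.31 ± 0.08), Per3 (-0.23 ± 0.06) and Bhlhe41 (-0.20 ± 0.05) also fell with overlapping groups. Per2 (-0.42 ± 0.18, adjusted p = 0.0765), Cry1 (-0.07 ± 0.10, adjusted p = 0.641) and Cry2 (-0.06 ± 0.03, adjusted p = 0.0766) did not pass. The labels give no hour of dissection. In cortex of the same animals 0 of the 20 were called, with a median of -0.02, but only 3 of all 17622 genes were called there. The tissue difference passed for 7, all with the lower effect in striatum, against 6.98% of all genes tested. The 7 included Npas2 (-0.52 ± 0.09, adjusted p = 1.72e-06), Dbp (-0.39 ± 0.09, adjusted p = 0.000945) and Ciart (-0.74 ± 0.17, adjusted p = 0.000683). With the animal as a block, which pairs the tissues of a mouse, the difference passed for 12, all lower. Over all 18440 genes that fit called 1665 lower. Per1 was among those gained, at -0.41 ± 0.17 without the block (adjusted p = 0.0856) and -0.39 ± 0.08 with it (adjusted p = 8.69e-05). So was Per2, at -0.43 ± 0.25 without the block (adjusted p = 0.273) and -0.42 ± 0.06 with it (adjusted p = 1.09e-06).

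**Figure D5:**
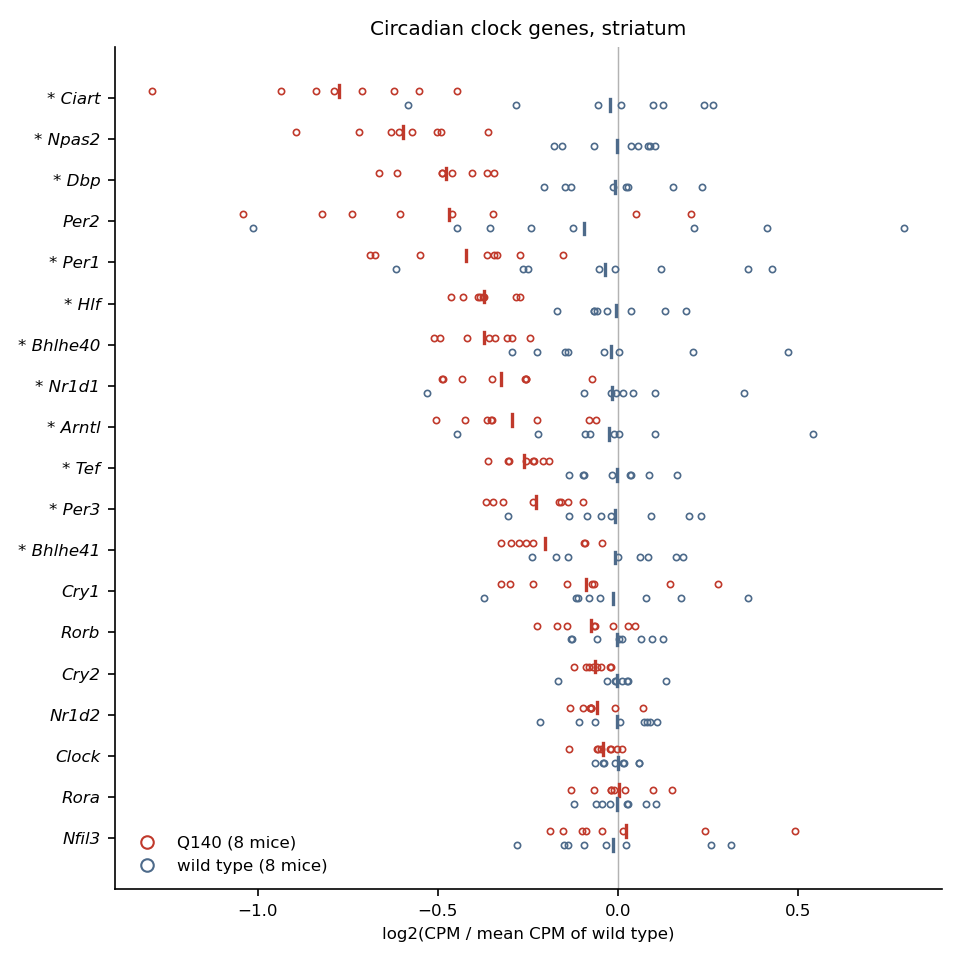
Level of 19 of the 20 circadian clock genes in striatum as log2 of CPM over the wild-type mean CPM, ordered by fold change. Circles are mice (8 Q140 above 8 wild type in each row), bars are means of the plotted log2 values, and asterisks mark the 11 genes that passed the test, all lower in Q140.

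The promoters of the clock genes that fell are shown because the loop's activators, Npas2 among them, act on the E-box CACGTG, whose letters read the same on both strands. RefSeq promoter windows (build GRCm38.p6, 250 bases before to 50 after the annotated start) were found for 17 of the 20 genes. The E-box occurred in 5 of them, against 7.15% of the 32851 windows in the table, and in 4 of the 10 windows of genes that fell. These 4 are given as the 250 bases before the start, 5′ to 3′ on the strand of the gene, with each E-box in capitals. Cry1, which did not pass the test, was the other gene with an E-box. Ciart held 3, the others 1 each. The list was made of genes of this loop, which acts through E-boxes, so these shares describe the list and not the Q140 effect. Whether the fall of Npas2 has a part in the other falls was not tested.
Ciart, chr3:95882229-95882478, minus strand: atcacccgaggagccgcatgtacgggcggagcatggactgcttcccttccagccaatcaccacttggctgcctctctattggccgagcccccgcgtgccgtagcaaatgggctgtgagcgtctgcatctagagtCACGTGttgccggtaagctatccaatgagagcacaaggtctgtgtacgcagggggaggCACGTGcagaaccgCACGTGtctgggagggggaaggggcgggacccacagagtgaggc
Per1, chr11:69098699-69098948, plus strand: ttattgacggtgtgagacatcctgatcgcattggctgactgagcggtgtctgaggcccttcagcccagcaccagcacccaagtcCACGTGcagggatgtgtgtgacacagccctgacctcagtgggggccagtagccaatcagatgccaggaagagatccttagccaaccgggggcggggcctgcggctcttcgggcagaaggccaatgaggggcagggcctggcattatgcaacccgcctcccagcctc
Bhlhe41, chr6:145865421-145865670, minus strand: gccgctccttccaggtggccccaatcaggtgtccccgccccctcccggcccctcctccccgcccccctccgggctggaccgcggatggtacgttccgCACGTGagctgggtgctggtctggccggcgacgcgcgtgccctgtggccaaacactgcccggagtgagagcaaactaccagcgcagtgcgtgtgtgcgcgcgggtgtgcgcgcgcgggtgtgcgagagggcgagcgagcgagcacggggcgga
Tef, chr15:81802423-81802672, plus strand: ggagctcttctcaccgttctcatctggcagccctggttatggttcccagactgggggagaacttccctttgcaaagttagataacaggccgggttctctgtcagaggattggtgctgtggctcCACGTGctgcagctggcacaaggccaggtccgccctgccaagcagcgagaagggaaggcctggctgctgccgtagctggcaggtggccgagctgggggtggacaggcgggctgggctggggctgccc
The first E-box base lay 166 bases before the start in Per1, 153 in Bhlhe41, 127 in Tef, and 116, 58 and 44 in Ciart. Dbp and Npas2 had no CACGTG in their windows. For Hlf, Nr1d1 and Cry2, 2 of which fell, the sequence at the window's start site was not found near the start of an annotated transcript, so the counts of 5 of 17 and 4 of 10 hold for these windows alone.

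Extracellular matrix and perineuronal net genes had 15 of 43 members lower and 4 higher (6 and 6 with library totals alone, where the median was -0.03 against -0.10). Spock3, a testican proteoglycan, was at 387 to 426 CPM (median 412) in Q140 and 523 to 597 CPM (median 545) in wild-type mice (-0.44 ± 0.03, SE, adjusted p = 1.04e-15). Among collagens, Col11a1 was at 10.01 to 15.1 CPM (median 13.9) in Q140 and 6.93 to 9.88 CPM (median 8.64) in wild-type mice (0.65 ± 0.09, adjusted p = 7.75e-08), and Col25a1, a membrane collagen of neurons, rose as well (0.34 ± 0.05, adjusted p = 7.83e-07). All 3 had separate groups. The net proteoglycans Bcan (-0.13 ± 0.03), Ncan (-0.12 ± 0.04) and Acan (-0.35 ± 0.13) fell slightly and did not pass with library totals alone (adjusted p = 0.183 for Bcan). The summed astrocyte markers, given beside Slc1a3, were lower too, and their part in these falls was not tested. No matrix protease rose, and 5 of 9 fell, among them Adamts2 (-0.72 ± 0.12, adjusted p = 3.61e-06). Synaptic organisers had 9 of 39 higher and 6 lower (17 and 5 with library totals alone). The rises were all postsynaptic: 9 of 25 postsynaptic adhesion genes rose, such as Lrrtm4 (0.25 ± 0.03, adjusted p = 3.01e-08) and Slitrk3 (0.24 ± 0.03, adjusted p = 5.11e-08), while Lrrtm1 (-0.32 ± 0.04, adjusted p = 1.45e-07), Nlgn1 (-0.22 ± 0.04) and Flrt3 (-0.20 ± 0.05) fell. None of 6 presynaptic partners rose and Nrxn3 fell (-0.12 ± 0.03), though not with library totals alone (adjusted p = 0.161). Axon guidance genes had 10 of 41 higher and 6 lower (18 and 5 with library totals alone). Of all genes tested 15.5% were higher and 14.2% lower. The semaphorin receptor Plxnd1 (-0.37 ± 0.04, adjusted p = 9.02e-10) and the semaphorin Sema7a (-0.52 ± 0.06, adjusted p = 1.71e-09) fell, while the Slit receptors Robo1 (0.19 ± 0.03, adjusted p = 1.76e-06) and Robo2 (0.09 ± 0.03) rose together with the ligands Slit1 (0.32 ± 0.07) and Slit2 (0.53 ± 0.16).

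Of 45 autophagy and lysosome genes 13 rose and 2 fell (26 and 1 with library totals alone). Atp6v1a, a catalytic subunit of the proton pump that acidifies lysosomes and synaptic vesicles, was at 281 to 308 CPM (median 293) in Q140 and 232 to 259 CPM (median 249) in wild-type mice (0.24 ± 0.02, SE, adjusted p = 1.60e-11). Atp6ap1, an accessory subunit, was at 257 to 281 CPM (median 267) in Q140 and 208 to 231 CPM (median 226) in wild-type mice (0.26 ± 0.03, adjusted p = 1.18e-11). Neither had overlapping groups. Atp6v0a1 (0.19 ± 0.03) and Atp6v1b2 (0.17 ± 0.03) rose too, with overlap. The autophagy receptor Sqstm1 (0.15 ± 0.03) and the initiating kinase Ulk1 (0.17 ± 0.04) rose, and the autophagy factor Atg14 fell (-0.20 ± 0.05). Of 20 cytosolic tRNA synthetases 6 rose and Kars fell (-0.19 ± 0.03, adjusted p = 2.26e-07), led by Aars (0.19 ± 0.03, adjusted p = 3.23e-07); RLE scaling called 3 higher and 1 lower, and library totals alone 14 higher and 1 lower.

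Stress response genes changed in both directions, as did all genes tested, of which 15.5% were higher and 14.2% lower. Atf6, a sensor of the unfolded protein response, was at 93.4 to 108 CPM (median 98.2) in Q140 and 133 to 166 CPM (median 148) in wild-type mice (-0.58 ± 0.04, SE, adjusted p = 3.74e-16). The groups were apart. Amino acid and one-carbon genes that the integrated stress response drives were higher for Shmt2 (0.31 ± 0.05, adjusted p = 7.25e-06), Asns (0.20 ± 0.04, adjusted p = 1.98e-05) and Psat1 (0.18 ± 0.04, adjusted p = 0.000198). Other targets of that response, Trib3 (-0.92 ± 0.18, adjusted p = 5.74e-05) and Slc7a11 (-0.31 ± 0.07, adjusted p = 0.000308), were lower, as was its transcription factor Ddit3 (-0.18 ± 0.07, adjusted p = 0.04), which did not pass with library totals alone (adjusted p = 0.218). The list had 10 of 35 genes higher and 5 lower (15 and 4 with library totals alone). Among 26 apoptosis genes, 3 were higher and 2 lower (7 and 1 with library totals alone). Hrk, a pro-apoptotic BH3-only protein of neurons, was at 36.4 to 51.1 CPM (median 39.5) in Q140 and 80.6 to 101 CPM (median 94.0) in wild-type mice (-1.16 ± 0.08, adjusted p = 1.08e-17), all Q140 mice being lower. Apaf1, the caspase-activating scaffold, rose (0.31 ± 0.06, adjusted p = 3.73e-05).

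Chromatin and RNA regulators changed in both directions. Of 18 histone deacetylases and sirtuins 8 rose and 2 fell. Hdac1 was at 10.2 to 13.9 CPM (median 11.95) in Q140 and 6.90 to 11.1 CPM (median 8.37) in wild-type mice (0.47 ± 0.07, SE, adjusted p = 2.31e-07), with overlap, and Hdac11 fell (-0.21 ± 0.04, adjusted p = 6.74e-06). The histone demethylases Kdm4b, at 102 to 115 CPM (median 108) in Q140 and 139 to 174 CPM (median 146) in wild-type mice (-0.49 ± 0.04, adjusted p = 4.37e-14), and Kdm3a (-0.45 ± 0.04, adjusted p = 1.15e-12) fell with separate groups. The histone methyltransferase Suv39h1 (0.30 ± 0.04, adjusted p = 3.77e-07) and the DNA demethylase Tet2 (0.23 ± 0.04, adjusted p = 2.26e-06) rose. Each of these roles held changes in both directions. Of 19 histone methyltransferases 5 rose and 3 fell, and of 16 histone demethylases 3 rose and 4 fell. Of 12 DNA methylation genes 2 rose and 5 fell. Neuronal splicing regulators had 6 of 18 members lower, led by Celf1 (-0.30 ± 0.03, adjusted p = 4.27e-11) and Rbfox1 (-0.26 ± 0.04, adjusted p = 3.75e-07), and 3 higher, led by Srrm4 (0.43 ± 0.06, adjusted p = 4.33e-07), which promotes neuronal microexons. For the deacetylase and DNA methylation list the calls were 10 of 30 higher and 7 lower (17 and 3 with library totals alone), for histone methylation 8 of 35 and 7 (19 and 7), and for splicing 8 of 41 and 8 (22 and 5). Nucleocytoplasmic transport had 8 of 38 higher and 5 lower (26 and 1), with the nucleoporin Nup35 at -0.54 ± 0.08 (adjusted p = 1.91e-07) and the export factor Cse1l at 0.22 ± 0.04 (adjusted p = 1.86e-06).

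Motor and cytoskeleton genes of the axon had 10 of 44 members higher and 6 lower (22 and 5 with library totals alone). For this list and those that follow, the shares of all genes tested were 15.5% higher and 14.2% lower. The dynein genes Dync1i1 (0.16 ± 0.03) and Dync1h1 (0.09 ± 0.02) rose, and the kinesins Kif5c (-0.26 ± 0.03, adjusted p = 3.84e-10) and Kif17 (-0.37 ± 0.04, adjusted p = 1.71e-10) fell. Of 32 primary cilium genes 8 rose and 5 fell (16 and 3), with the ciliary receptor Gpr161 at 0.48 ± 0.08 (adjusted p = 1.36e-06). Glycolysis and pyruvate entry had 7 of 32 higher and 6 lower, against 5 and 7 with RLE scaling and 15 and 2 with library totals alone. Pdp1, the phosphatase that activates pyruvate dehydrogenase, was at 105 to 158 CPM (median 125) in Q140 and 159 to 291 CPM (median 194) in wild-type mice (-0.66 ± 0.08, SE, adjusted p = 9.43e-09), without overlap, and Pdha1, a subunit of that enzyme, rose (0.18 ± 0.02, adjusted p = 2.67e-08). Sphingolipid and ganglioside enzymes had 10 of 40 higher and 11 lower (14 and 6, where the median turned to 0.03 against -0.05). B4galt6, a lactosylceramide synthase, was at 194 to 208 CPM (median 197) in Q140 and 156 to 176 CPM (median 168) in wild-type mice (0.24 ± 0.03, adjusted p = 3.80e-10), again apart. The ceramide synthase Cers1 (-0.26 ± 0.03, adjusted p = 7.71e-09) and the ganglioside sialyltransferase St3gal2 (-0.27 ± 0.03, adjusted p = 1.11e-08) fell. Among the 77 ribosomal protein genes those that rose were Rpl3 and Rpl18, and those that fell were Rpl31 and Rpl10a, against 19 higher and 1 lower with library totals alone. Ribosomal protein genes have many near-identical pseudogenes, so such counts are uncertain.

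Complement genes that changed mostly fell, by small amounts. Complement and antigen presentation together had 6 of 21 genes lower and 2 higher (2 and 2 with library totals alone). C1qa (-0.17 ± 0.06), C1qb (-0.21 ± 0.06) and C1qc (-0.22 ± 0.06), which form the complement initiator C1q, fell, with adjusted p of 0.0297, 0.00466 and 0.00263. With library totals alone C1qa and C1qb did not pass (adjusted p = 0.21 and 0.058). Beside them 8 of 10 microglia markers, which include C1qa, fell and none rose, none was at 0, and the sum was 386 to 421 CPM in Q140 and 439 to 491 CPM in wild-type mice. The part of microglia in these falls was not tested. Glutamate and GABA handling had 4 of 21 genes higher and 4 lower (10 and 2). The neuronal glutamate transporter Slc1a1 was at 132 to 151 CPM (median 142) in Q140 and 156 to 182 CPM (median 168) in wild-type mice (-0.23 ± 0.03, SE, adjusted p = 5.66e-08), without overlap. The astrocyte transporter Slc1a3 fell too (-0.14 ± 0.03, adjusted p = 0.00011), but did not pass with library totals alone (adjusted p = 0.0666). Of 10 astrocyte markers, Slc1a3 among them, 3 fell and none rose, none was at 0, and the sum was 1171 to 1257 CPM in Q140 and 1309.9 to 1462 CPM in wild-type mice. Whether astrocyte content has a part in that fall was not tested. Exons of Inpp5j, Mapk4, Rps6ka5, Chn1, Acvr1c, Fst, Htr1b, Lrrtm4, Slc1a1, Shmt2, Aars, Hdac11, Suv39h1, Tet2, Srrm4, Kif17, Pdha1, Cers1 and Nup35 also overlap those of another annotated gene, and their values share that limit.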

How the data were processed

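Whole striatum and cortex of 48 mice were sequenced as RNA, and the 16 Q140 and wild-type striatum libraries carry the comparison. Reads were mapped and counted with STAR 2.7.5c, SAMtools 1.10 and HTSeq 0.12.3, per the submitters' processing notes. The authors deposited whole-number counts per gene, not normalized, for 48795 genes, and FPKM values, which the authors scaled by depth and gene length. Neither the annotation release nor the strand setting of the counting was given in the sources used here. Gene positions (GRCm38) come from GENCODE, which held 48349 of the 48795 gene IDs, and promoter sequences are those of RefSeq on GRCm38.p6.

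Genes with at least 10 counts in enough libraries (edgeR's filterByExpr, minimum total 15) were fitted with edgeR 4.0.16 in R 4.3.3 by its quasi-likelihood test on all 48 striatum libraries, with 6 genotypes and sex as terms, TMM scaling and Benjamini-Hochberg adjustment at 0.05. The 48 libraries share 1 estimate of the spread. Tissue differences used all 96 libraries, and were fitted again with the animal as a replicate block. Striatum and cortex are paired by animal number in the labels, and the residuals of the same animal had a median correlation of 0.0962, against -0.0019 between animals. Alternatives were RLE scaling, library totals alone, no filter, DESeq2 1.42.0, limma 3.58.1 (voom, and trend on log2(FPKM + 0.1) or log2(FPKM + 1)), the prefix of the animal number added as a term, sex left out, the 16 libraries alone, an adjusted p of 0.1, and, added after the data were seen, each library left out in turn. The fitting functions were tested on simulated counts with few changed genes, balanced between directions. That test did not cover the scaling with a share of calls as large as here.

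The members and lists were chosen with earlier results of these data known. Genes were named as the 12 highest-ranked by p in each direction among called changes of at least 0.5 and a mean level of 1 log2 CPM or more, outside the identity genes, Htt and predicted genes, and up to 3 per list by p. Exon overlaps were looked up for these genes. Further called list members given as examples were chosen after their values were seen. A check of promoter CpG content was void, because under 80% of the tested genes have a promoter entry. Some genes of the lists and of the ranking are counted but not reported here by name.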

Additional observations from a re-analysis of the deposited data

Results flagged for a closer look

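Of 240 groups of 8 libraries checked by Dixon's test, 18 held a library far from the other 7, where chance gives about 1 in 20. Among the Q140 mice, 24-1 was highest for Pcdh20 at 21.8 CPM and lowest for Lrrn3 at 56.7 CPM. Mouse 18-5 was highest for Arpp19 at 479.5 CPM and lowest for the glucose transporter Slc2a3 at 150.2 CPM. Mouse 29-3 was highest for Npy1r at 20.2 CPM, and mouse 26-1 lowest for St3gal2 at 98.3 CPM. Among the wild-type mice, 21-1 was highest for Pdp1 at 290.8 CPM, Celf1 at 482.8 CPM and Tet2 at 98.4 CPM and lowest for Acvr1c at 117.7 CPM. Wild-type mouse 16-2, the library with the lowest total of its group at 15.88 M counts, was highest for Ipcef1 at 6.96 CPM and Wt1 at 0.13 CPM and lowest for Msh6 at 14.58 CPM. Wild-type mouse 18-1 was highest for Plcb1 at 624.9 CPM and for the summed blood markers at 11.51 CPM, mouse 20-2 highest for Ptprv at 99.98 CPM, and mouse 13-2 lowest for Atp6ap1 at 208.4 CPM.

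The Q140 effect differed between striatum and cortex by its own test, being higher in striatum for 1370 genes and lower for 1288. For the rises reported here the difference on the log2 scale was 0.786 for Stmn2, 0.583 for Polr2a, 0.489 for Cd200, 2.13 for Sfmbt2, 0.522 for Gprasp2, 1.40 for Ipcef1, 0.537 for Gng3, 0.583 for Nagk, 0.823 for Olfm3, 1.17 for Pcdh20 and 0.708 for Lrrn3. For the 12 falls it was -1.89 for Ddit4l, -1.22 for Plk5, -0.593 for Ppp4r4, -1.07 for Ptprv, -0.559 for Gsg1l, -0.738 for Rps6ka4, -1.31 for Slc4a11, -0.671 for Arpp19, -0.446 for Sec14l1, -0.502 for Bcr, -0.703 for Zbtb18 and -0.538 for Ddn.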

How the results depend on the processing

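The scaling mattered most to the counts of calls. Library totals alone called 5480 genes higher and 1557 lower, in place of 2719 and 2482. Limma-trend on log2(FPKM + 0.1) called 5370 higher and 1509 lower, on log2(FPKM + 1) 5374 and 1510, and without the filter 5015 and 1447. These alternatives all lack TMM scaling. Leaving out each of the 16 libraries in turn gave 2518 to 2680 higher and 2351 to 2447 lower. RLE scaling, DESeq2, limma-voom, no filter, no sex term, the animal number prefix, the 16 libraries alone and an adjusted p of 0.1 kept both counts within 1.5 times. Of 54 counts of list members, 36 moved by more than that with library totals alone, 37 with either FPKM pseudocount and 38 without the FPKM filter, and at most 5 under any other alternative.

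The alternatives were run on 107 genes, named by the rule or used to check labels (106 where one was not tested), and none of them reversed. Among these, 2 calls were lost with library totals alone (Slc1a3 and Htt), 3 with either FPKM pseudocount, which include the same pair, and 4 without the FPKM filter, which add C1qc. Rpl18 was lost without the count filter, with the prefix and in the 16 libraries alone, while Msh6 was gained with library totals alone and with FPKM. Other list members that lost their call with library totals alone are given as such beside their values. Of the 106 that were called, 105 were called in all 16 fits that left out a library, and Rpl18 was the exception. Apart from Htt these genes were named by p in the fit that holds all these libraries, so that count is no separate check. With the animal as a replicate block the tissue difference passed for 1793 genes higher and 1665 lower in striatum, and it changed no call among the 24 highest-ranked genes. The block raised the clock genes with a lower effect in striatum to 12 from 7, and such genes among all those tested to 1665 from 1288. Depth of 15.8 to 20.6 M counts limits genes near 1 CPM, such as Wnt4.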

Other observations

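Long genes held more falls than short ones when falls of every size were counted. The median span was 30.7 kb for all falls and 23.2 kb for all rises, against 19.7 kb for all genes tested. Changes of at least 0.5 on the log2 scale had shorter median spans, 14.7 kb for falls and 17.1 kb for rises. Among tested genes ordered by genomic span, the fifth with the shortest spans (median 1.59 kb) had 9.63% of genes higher in Q140 and 7.80% lower, and the fifth with the longest spans (median 126 kb) had 16.3% higher and 21.0% lower. The median level differed between those groups of genes too, at 1.47 and 5.13 log2 CPM, so that span and level move together and their parts were not tested.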
